A study of Rattus norvegicus with 20 samples.

Results

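K4 trimethylation (K4me3) was followed in a normal and a failed rat heart by chromatin immunoprecipitation (ChIP) read out on arrays. The arrays were chosen by their labels: 1 anti-K4me3 array and 1 array of genomic DNA not yet immunoprecipitated (pre-IP) for each heart, 4 of the study's 20. All 4 samples are from Dahl rats, lines bred for how their blood pressure responds to salt, aged 19 weeks per the labels; the line is not named. The labels call one heart normal and the other failed. Congestive heart failure and a high-sodium diet are given for the failed heart's mRNA sample. For the other samples the sources used here give no diet. A single left ventricle was used per experiment, and the sources used here do not say whether the ChIP and the pre-IP DNA of a heart came from the same ventricle. Each group is therefore 1 array, with no replicate error and no test, and every difference below is a difference between arrays.

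Trimethylation of lysine 4 of histone H3 is laid down by enzymes of the MLL and SET1 families around the start sites of genes that are active or poised for transcription. Promoters rich in CG dinucleotides usually carry it, and in differentiated tissue some silent developmental regulators carry it together with repressive marks of the Polycomb group. Dimethylation of the same lysine (K4me2) spreads further around start sites and enhancers. The labels give K4 without naming the histone. The array, Rat Genome 230 2.0, was designed for mRNA, so its probes lie in transcribed sequence, mostly toward the far end of a gene and not at its promoter. The DNA was fragmented, amplified by T7 transcription and labelled with biotin before hybridisation, per the labels.

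Intensities were scaled so that the median of each array was 100, values under 10 were raised to 10, and log2 was taken. Enrichment is the log2 K4me3 value minus the log2 pre-IP value of the same heart, and a difference is failed minus normal. A value of 1 in size, which is 2-fold, was used as the size to count. Of 14217 genes measured, 7101 passed a level filter, which asked for a mean over the 4 arrays no lower than the median of the probe sets; none of these had a value at the floor. The medians of the 4 arrays as deposited lay between 362 and 372, and 2.23% to 3.10% of their probe sets were at the floor. On the mRNA arrays, which the labels attribute to left ventricular myocytes, all 7 measured markers of heart muscle cells were above the array median in both hearts. Markers of other cell types were also measured there. The summed level was 22108 in normal heart and 44725 in failed heart for 8 fibroblast markers, 12188 and 11365 for 7 endothelial markers, 5595 and 2380 for 5 smooth muscle markers, and 2225 and 9523 for 6 macrophage and leukocyte markers. The part of cell composition in the K4me3 values was not tested, and fewer cells with the mark and less mark per cell cannot be told apart in such bulk samples.

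Few genes carried K4me3 at 2-fold or more over pre-IP in both hearts. In the normal heart 465 genes (6.55%) reached that size, and in the failed heart 375 genes (5.28%). In both hearts it was 53 genes (0.746%), which is 11.4% of those enriched in the normal heart and 14.1% of those enriched in the failed heart. Genes above 0 in both hearts without a minimum size numbered 2168 (30.5%), and genes below 0 in both numbered 1960 (27.6%). At least 2-fold under pre-IP were 347 genes (4.89%) in normal heart, 289 (4.07%) in failed heart and 41 (0.577%) in both. Of the genes enriched in the normal heart, 67.3% were above 0 in the failed heart, against 50.7% of all genes that passed. Of those enriched in the failed heart, 68.0% were above 0 in the normal heart, against 52.3% of all genes. Without the level filter 195 of 14217 genes (1.37%) were enriched in both hearts. With the mean of both pre-IP arrays under both hearts, an alternative chosen after seeing the data that gives the hearts a shared reference, 214 genes were enriched in the normal heart and 88 in both, of which 42 were among the 53.

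The 53 genes enriched in both hearts had a low median mRNA level. Their median mRNA intensity was 71.5 in normal heart and 78.5 in failed heart, where all genes that passed had 216 and 236. Some were higher, among them Nosip at 815 and 630, Cd248 at 451 and 1003 and Gak at 391 and 470. The 53 included genes of tissues other than heart, such as Sag, the visual arrestin of photoreceptors, Drd4, a dopamine receptor, and Sstr3, a somatostatin receptor. Developmental regulators among them were Hoxb3, Nkx2-3, Foxi2, Foxl2, Zic2, Fgf4 and the Notch ligands Dll3 and Dll4. These examples were picked from the 53 after their values were seen. The median gene span of the 53 was 15788 bp, where all genes had 18309 bp. The median pre-IP intensity of the 53 was also low, 76.8 and 98.0 in the normal and failed heart, where all genes had 166 in each. Their median K4me3 intensity was 194 and 241, where all genes had 165 and 170. Both follow in part from the selection, because a gene dim on pre-IP passes the level filter only if its K4me3 values are high. Across the genes that passed, the pre-IP intensity itself had a Spearman's rho with mRNA of 0.18 and 0.15. The part of this selection in the low median mRNA was not tested. The 564 genes that passed with a mean pre-IP intensity under 100 had median enrichments of 0.62 in normal heart and 0.59 in failed heart.

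**Figure D1:**
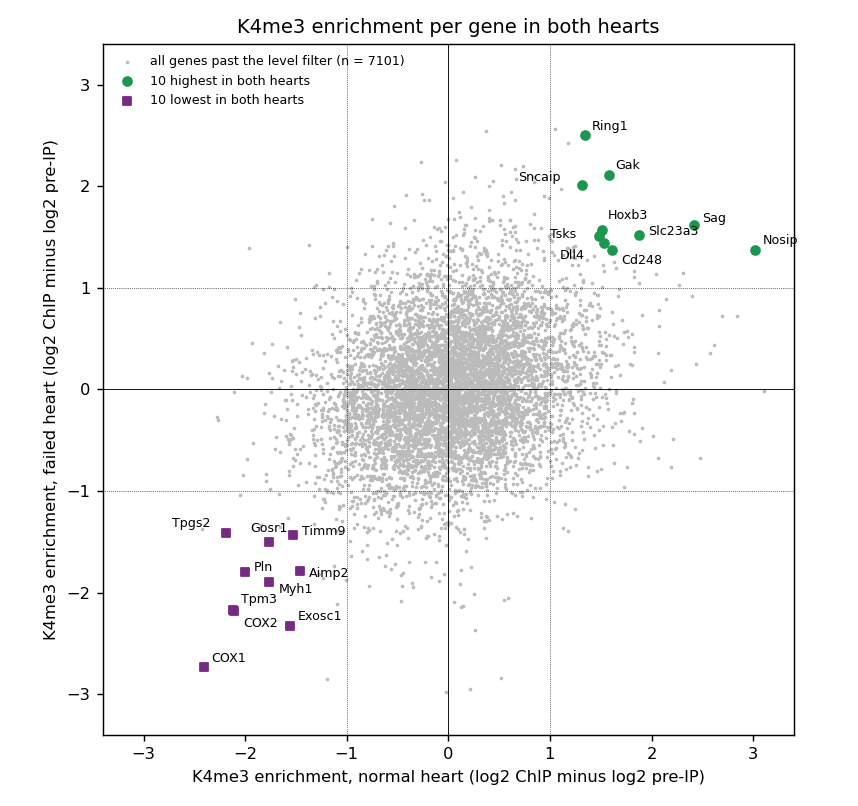
K4me3 enrichment (log2 ChIP minus log2 pre-IP) of 7101 genes in the normal heart (x axis) and the failed heart (y axis), 1 point per gene, with dotted lines at 2-fold. The 10 genes highest in both hearts lie at the upper right, with Sncaip lowest of them in the normal heart at 1.31, and the 10 lowest at the lower left, with Tpgs2 highest of them in the failed heart at -1.41, outside a cloud with a Spearman's rho of 0.229.

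Sag had scaled K4me3 intensities of 146 in normal heart and 281 in failed heart, against pre-IP intensities of 27.2 and 91.9. Its enrichments were 2.42 and 1.61, so K4me3 was above pre-IP in both hearts while both kinds of array were higher in the failed heart. Gak, a kinase that helps strip the clathrin coat from vesicles, had K4me3 intensities of 468 and 915 and pre-IP intensities of 157 and 212. Gak was bright on all 4 arrays and enriched by 1.58 and 2.11. Nosip, which binds nitric oxide synthase, had K4me3 intensities of 178 and 258. Its pre-IP intensities of 21.8 and 99.3 differed more than its K4me3 intensities, and its enrichments were 3.02 and 1.38. The normal-heart pre-IP values of Sag and Nosip are low, and with a floor of 50 their normal-heart enrichments were 1.55 and 1.83. With the mean of both pre-IP arrays Sag had 1.55 and 2.49 and Nosip 1.93 and 2.47, so the order of the hearts turned for both genes.

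Hoxb3, a homeobox gene of the body axis, had K4me3 intensities of 163 and 228 and pre-IP intensities of 57.1 and 76.6. Its enrichments of 1.51 and 1.57 differed by 0.06 between the hearts. Ring1, a subunit of Polycomb repressive complex 1, had K4me3 intensities of 308 and 561 and pre-IP intensities of 122 and 98.9. The enrichments of Ring1 were 1.34 and 2.50 at that probe set, and -0.32 and 0.01 at its other one. Dll4, a Notch ligand of endothelium, had enrichments of 1.54 and 1.44, with 0.31 and 0.65 at its other probe set. Cd248, a surface protein of pericytes and fibroblasts, had 1.62 and 1.38, with 0.79 and 0.35 at its other probe set. Slc23a3, a solute carrier, had 1.88 and 1.52, Tsks, a substrate of testis kinases, 1.48 and 1.51, and Sncaip, a partner of synuclein, 1.31 and 2.01; each of these was measured by 1 probe set.

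The genes lowest in both hearts were led by genes whose DNA was very bright before immunoprecipitation. COX1, a cytochrome oxidase subunit encoded in mitochondrial DNA, had pre-IP intensities of 30274 in normal heart and 25626 in failed heart and K4me3 intensities of 5732 and 3854. Its enrichments were -2.40 and -2.73. COX2, another subunit encoded in mitochondrial DNA, had pre-IP intensities of 38998 and 32428 and K4me3 intensities of 8946 and 7174, and its enrichments were -2.12 and -2.18. Both were below 0 on all 16 ChIP arrays of the study, between -2.80 and -1.35 for COX1 and between -2.34 and -0.94 for COX2, so their depletion was not particular to K4me3. Of the 7101 genes, 6 had a mean pre-IP intensity over 10000, namely COX1, COX2, Gosr1, Myh1, Prrc2c and Tpm3, with median K4me3 enrichments of -1.94 and -2.04. The values of these genes depended on the scaling: with quantile normalization COX1 had -1.17 and -1.68 and COX2 -0.45 and -0.50.

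The other 8 of the 10 lowest genes encode proteins of several kinds. Pln, which encodes phospholamban, the inhibitor of the calcium pump, had K4me3 intensities of 249 and 260 and pre-IP intensities of 996 and 904. Its enrichments were -2.00 and -1.80, with -1.13 and -0.67 at a second probe set that passed the filter. Myh1, a fast skeletal myosin heavy chain, had -1.76 and -1.90, and its 4 other probe sets, all past the filter, lay between -2.12 and -1.80 in normal heart and between -2.16 and -1.53 in failed heart. The Myh1 probe set used had pre-IP intensities of 38423 and 35002 and mRNA intensities of 30734 and 22459. Whether the Myh1 probe sets measure that gene alone was not tested. Tpm3, a tropomyosin, had -2.11 and -2.18 at the probe set used. The 10 other Tpm3 probe sets that passed ran from -0.84 to 1.11 and from -0.49 to 2.13, so the low value belonged to 1 probe set. Gosr1, a Golgi SNARE, had -1.77 and -1.51, with 1.58 and -1.94 and with -0.14 and -0.59 at other probe sets, under the level filter. Like COX1 and COX2, the bright probe sets of Myh1, Tpm3 and Gosr1 were below 0 on all 16 ChIP arrays, between -1.95 and -0.74, between -2.26 and -1.19 and between -1.91 and -0.83, so their low values were not particular to K4me3 either. With quantile normalization Myh1 had 0.00 and -0.07, Gosr1 -0.08 and 0.26 and Tpm3 -0.88 and -1.23. Exosc1, an RNA exosome subunit, had -1.55 and -2.33, with -0.17 and -0.32 at its other probe set, under the level filter. The others were Aimp2, a scaffold of tRNA synthetases, at -1.46 and -1.79, Timm9, an import chaperone of mitochondria, at -1.53 and -1.43, and Tpgs2, a subunit of tubulin polyglutamylase, at -2.19 and -1.41. Tpgs2 had 0.61 and -0.61 at its other probe set.

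Promoter sequence is shown for 4 genes to set enrichment beside CG content: Gak and Sag, high in both hearts, and Pln and Atp2a2, low in both at the probe set used. They were picked after their values were seen, as 1 CG-rich and 1 CG-poor promoter of each kind, and so say nothing of how CG content goes with enrichment. Atp2a2, the calcium pump of the sarcoplasmic reticulum, had K4me3 intensities of 156 and 129, pre-IP intensities of 492 and 331, and enrichments of -1.66 and -1.36. Its 3 other probe sets that passed had -1.50 and -0.99, -0.76 and -0.83, and 1.0 and -0.51, so 1 of them was 2-fold above pre-IP in the normal heart. Each stretch has 300 bases, 250 before and 50 after the start of the gene in RefSeq on the rat build GRCr8, on the plus strand, and CG dinucleotides are in capitals. They lie at chr14:1234022-1234321 for Gak, chr9:95916947-95917246 for Sag, chr12:39733269-39733568 for Atp2a2 and chr20:33172244-33172543 for Pln.
Gak: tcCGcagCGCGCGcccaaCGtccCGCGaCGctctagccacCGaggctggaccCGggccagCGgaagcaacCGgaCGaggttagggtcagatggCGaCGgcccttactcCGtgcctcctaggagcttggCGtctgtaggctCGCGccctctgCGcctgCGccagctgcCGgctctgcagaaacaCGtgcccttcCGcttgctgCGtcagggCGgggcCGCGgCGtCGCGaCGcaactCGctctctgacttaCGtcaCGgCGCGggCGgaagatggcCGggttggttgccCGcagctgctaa
Sag: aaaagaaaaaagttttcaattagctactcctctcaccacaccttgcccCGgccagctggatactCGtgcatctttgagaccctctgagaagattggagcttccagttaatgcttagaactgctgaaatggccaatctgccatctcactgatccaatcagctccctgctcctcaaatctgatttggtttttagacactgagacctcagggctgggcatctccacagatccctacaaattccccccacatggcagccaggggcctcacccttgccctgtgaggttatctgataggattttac
Atp2a2: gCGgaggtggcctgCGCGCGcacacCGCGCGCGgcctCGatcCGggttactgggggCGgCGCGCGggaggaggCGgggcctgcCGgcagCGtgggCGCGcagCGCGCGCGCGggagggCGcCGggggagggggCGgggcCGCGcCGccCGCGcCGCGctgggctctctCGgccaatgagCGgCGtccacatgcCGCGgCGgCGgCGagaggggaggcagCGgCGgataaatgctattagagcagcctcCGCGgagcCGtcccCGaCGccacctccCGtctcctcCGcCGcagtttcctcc
Pln: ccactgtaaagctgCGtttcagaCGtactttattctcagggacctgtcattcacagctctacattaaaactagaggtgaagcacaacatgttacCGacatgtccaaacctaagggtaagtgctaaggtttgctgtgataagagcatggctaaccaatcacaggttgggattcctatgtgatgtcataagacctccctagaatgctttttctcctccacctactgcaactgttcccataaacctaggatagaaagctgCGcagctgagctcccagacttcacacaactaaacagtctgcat
The Gak stretch holds 40 CG dinucleotides, that of Sag 2, that of Atp2a2 52 and that of Pln 4. Of 27457 promoters of the same length, 94.8% held at least 1 CG, the median was 7, 3.44% held 40 or more and 36.2% held 4 or fewer.

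Over all genes the CG count of the promoter set little of the order. A promoter was available for 5880 of the genes that passed (82.8%), which were divided into 5 equal groups by CG count. The median enrichment went from 0.08 at a median of 4 CG to -0.04 at a median of 36 in the normal heart, and from 0.11 to -0.02 in the failed heart. The share of genes enriched 2-fold lay between 5.10% and 8.50% in normal heart and between 4.17% and 5.78% in failed heart. These are windows at annotated starts, while the probes measured other places in the gene. Short genes alone were also put in 3 groups by CG count, with medians of 5, 17 and 28 CG. There the median enrichment was 0.18, 0.37 and 0.29 in the normal heart and 0.18, 0.11 and 0.17 in the failed heart. The shares enriched 2-fold were 9.06%, 14.1% and 13.5% in the normal heart and 5.56%, 5.57% and 6.43% in the failed heart.

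The span of the gene, a stand-in for the distance between its probes and its start, went with K4me3 in the normal heart and less in the failed heart. Among the shortest 1416 genes, with a median span of 3110 bp, the median enrichment was 0.28 in normal heart and 0.14 in failed heart. It was 0.06 and -0.01, -0.03 and -0.04, and -0.05 and -0.03 in the next 3 groups, and -0.10 and -0.00 among the longest 1416 genes, with a median span of 107682 bp. Genes enriched 2-fold made up 12.1% of the shortest and 3.60% of the longest genes in the normal heart, and 5.65% of both groups in the failed heart. On the K4me3 arrays without pre-IP the shortest genes had median intensities of 224 and 222 and the longest 147 and 156, so short genes were brighter in both hearts. The pre-IP medians of these groups were 188 and 197 for the shortest and 162 and 154 for the longest genes.

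K4me2, measured on other ChIP arrays but set over the same pre-IP arrays, fell from each group to the next in both hearts. Its medians were 0.83 and 1.09 at the shortest and -0.10 and -0.02 at the longest genes in the normal and failed heart. K4me3 fell from each group to the next in the normal heart, while in the failed heart it was lowest in the middle group. The 90 genes that passed with spans under 1 kb had K4me3 medians of 0.32 in normal heart and 0.04 in failed heart; 16 of them were enriched in normal heart and 3 in failed heart, where 6.55% and 5.28% of all genes were.

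**Figure D2:**
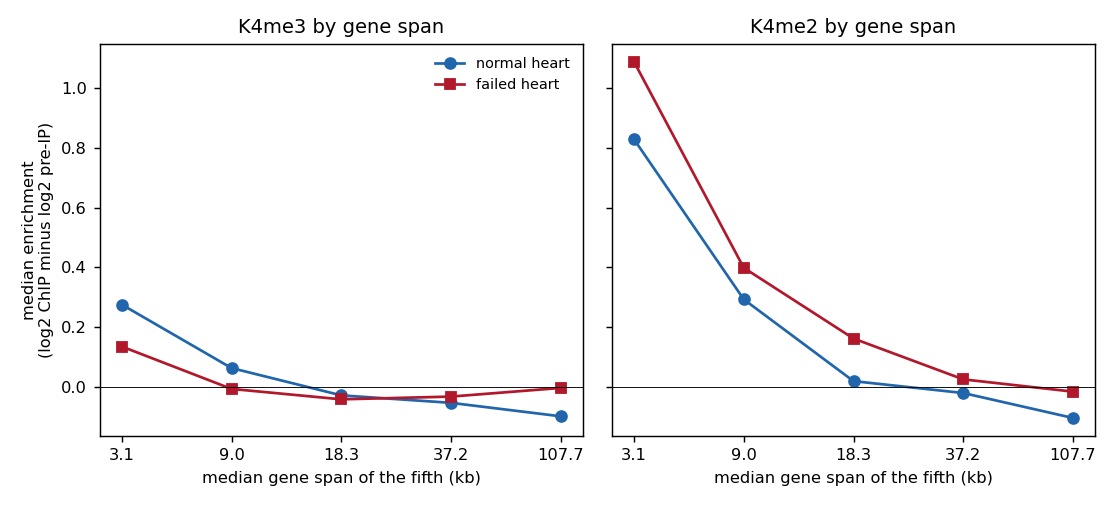
Median enrichment (log2 ChIP minus log2 pre-IP, y axis) of genes in 5 equal groups by annotated gene span (x axis, median span of the group in kb), K4me3 on the left and K4me2 on the right, in the normal (blue circles) and failed (red squares) heart, 1 array pair each. K4me3 goes from 0.28 to -0.10 in the normal heart and from 0.14 to -0.00 in the failed heart, within a narrower range than K4me2.

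Gene classes were compared by the median over all measured members, whatever their level, beside the medians of all genes, 0.02 in normal heart and -0.04 in failed heart. Of 53 classes computed, the homeobox, Pax and Sox genes, transcription factors that pattern the embryo, were the only one with a median above 0.3 in both hearts. Their medians were 0.54 and 0.47 over 78 measured genes. Of these, 48 were above 0 in both hearts and 6 were below 0 in both, which is 61.5% and 7.69%; of all measured genes 27.7% were above and 28.9% below 0 in both. The K4me3 arrays themselves gave median intensities of 131 and 121 for the class and 101 in each heart for all genes, and the pre-IP arrays 91.2 and 87.3, where all genes had 97.9 and 99.7. The class had little mRNA, with median intensities of 41.2 and 41.1.

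Within the class, the 24 Hox genes, among them the antisense gene Hoxa11-as, had medians of 0.55 and 0.63, with 18 above 0 and 2 below 0 in both hearts. The 14 Sox genes had 0.46 and 0.24, with 8 above 0 and none below 0 in both, and the 6 Nkx genes 0.84 and 0.55. The 6 Pax genes were close to all genes in the normal heart at 0.03 and had 0.44 in the failed heart. Nkx2-3 had K4me3 intensities of 490 and 634 and pre-IP intensities of 217 and 242, and its enrichments were 1.17 and 1.39. Irx1 and Irx4, patterning genes of the heart chambers among other tissues, were at the low end with -0.72 and -0.42 for Irx1 and 0.09 and -1.0 for Irx4. Sox1 and Pitx1 differed most downward in the class, from 1.70 to -0.31 and from 1.58 to -0.20, and Barhl1 upward, from -0.60 to 0.99. Of the 44 members that passed the filter, 9 were enriched in normal heart, 5 in failed heart and 2 in both, beside shares over all genes of 6.55%, 5.28% and 0.746%.

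The forkhead, Gata and T-box genes, also developmental transcription factors, had medians of 0.39 and 0.17 over 51 genes, with 22 above 0 and 4 below 0 in both hearts. Tbx2, a repressor of chamber genes in the developing heart, had K4me3 intensities of 121 and 244, pre-IP intensities of 67.3 and 57.4, and enrichments of 0.84 and 2.09. Foxi2 had 1.01 and 1.53. At the low end were Foxo3 at 0.09 and -0.51 and Tbrg4 at -0.03 and -0.21; the latter fell in the class by its symbol and is not a T-box gene. Neurotransmitter receptors had medians of 0.18 and 0.17 over 84 genes, with 35 above 0 and 16 below 0 in both hearts. Drd4 had K4me3 intensities of 194 and 192 and pre-IP intensities of 80.1 and 82.2, nearly alike in the hearts, and enrichments of 1.27 and 1.22. Gabrr2, a GABA receptor subunit, had -1.13 and -0.86. Keratins had medians of 0.12 and 0.21 and numbered zinc finger genes 0.14 and -0.01.

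Over pre-IP, genes of the contractile machinery lay on the other side. The adult sarcomere and Z-disc genes had medians of -0.30 and -0.37 over 23 genes, of which 14 were below 0 and 3 above 0 in both hearts. Their median mRNA intensities were 5305 and 14823, and their pre-IP intensities of 248 and 199 were above those of all genes. The K4me3 arrays themselves gave 201 and 149, also above all genes, at 101 in each heart. They lay above the homeobox, Pax and Sox genes too, at 131 and 121, so without pre-IP the order of these classes was the other way. With the mean of the probe sets the failed-heart median of the class was -0.64. Tnnc1, the cardiac troponin C gene, was at the high end with 0.90 and 0.20, and Tcap, a titin cap protein, with 0.05 and 0.89. Myh6 and Myh7, the fast and slow cardiac myosin heavy chains, were at the low end, with -2.26 and -0.30 for Myh6 and -0.35 and -1.95 for Myh7. The other Myh6 probe set had -0.61 and -1.14, so the direction between the hearts turned with the probe set.

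Smooth muscle markers had medians of -0.22 and -0.43 over 11 genes, 7 of them below 0 in both hearts. This class is wider than the set whose mRNA was summed above. It holds Des, the intermediate filament desmin, which is not confined to smooth muscle and had -0.22 and -1.46. Calcium cycling genes had medians of -0.22 and -0.01 with a wide spread, from Srl, sarcalumenin, at 1.23 and 0.44 to Pln. Classes with high mRNA and no muscle role were low in part. Translation factors had medians of -0.23 and -0.15, with 30 of 62 below 0 in both hearts, ribosomal proteins -0.12 and -0.27, and proteasome subunits -0.13 and -0.13. Ribosomal proteins were bright on both kinds of array, with median K4me3 intensities of 734 and 695 and pre-IP intensities of 915 and 840. Respiratory chain genes, with median mRNA intensities of 1864 and 4182, were near all genes at 0.06 and 0.01, as were mitochondrial ribosomal proteins at 0.14 and -0.03 and heat shock and chaperone genes at 0.06 and -0.13.

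**Figure D3:**
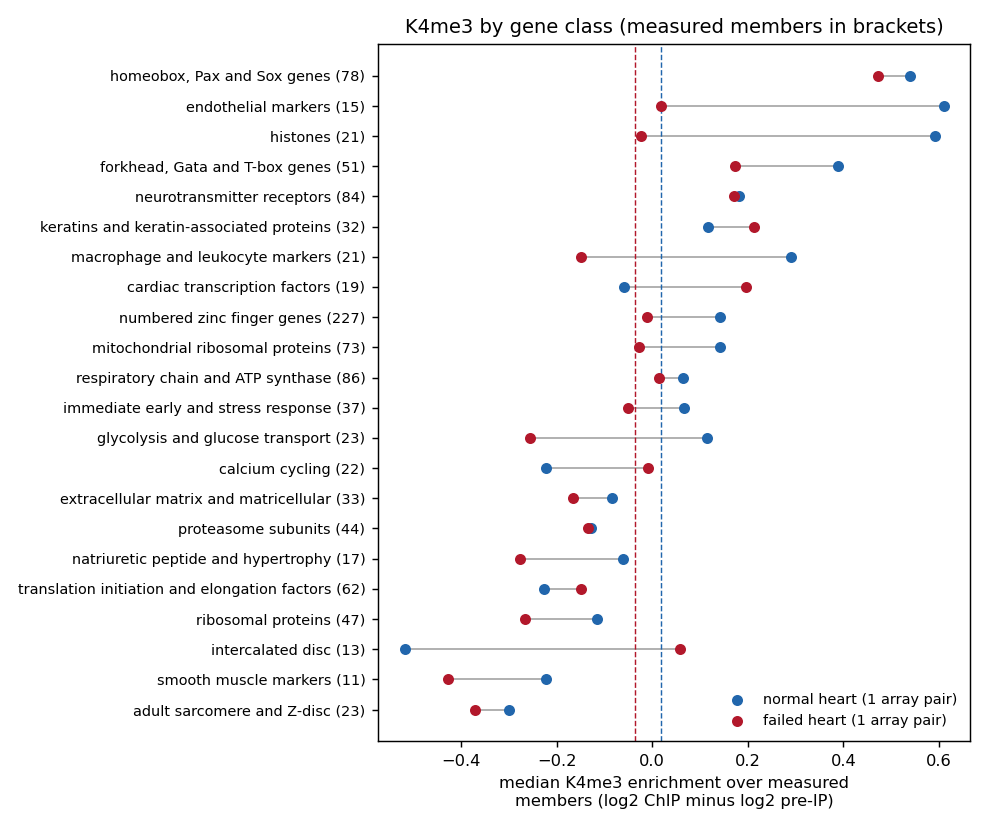
Median K4me3 enrichment (log2 ChIP minus log2 pre-IP, x axis) over all measured members of 22 gene classes (y axis, number of members in brackets), in the normal (blue) and failed (red) heart, 1 array pair each; dashed lines mark the medians of all genes, 0.02 and -0.04. Homeobox, Pax and Sox genes lie at 0.54 and 0.47, adult sarcomere genes at -0.30 and -0.37, and histones at 0.59 and -0.02.

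The sign of the relation with mRNA depended on the pre-IP arrays. Across the 7101 genes the enrichment had a Spearman's rho with the mRNA level of -0.17 in each heart. The K4me3 arrays alone had 0.04 in normal heart and 0.00 in failed heart, and the pre-IP arrays themselves had 0.18 and 0.15. Genes share their arrays and probes in these figures and are not replicates. In 10 equal groups by mRNA level, the median enrichment went from 0.20 to -0.19 in the normal heart and from 0.18 to -0.13 in the failed heart, from least to most mRNA. The pre-IP intensity went from 145 to 218 and from 150 to 201 over the same groups, and the K4me3 intensity from 165 to 188 and from 174 to 183.

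How far the K4me3 pattern recurred was first read from the enrichments of the separate hearts, which share no array. Across the 7101 genes the rho between the hearts was 0.229. For the other 7 marks it lay between 0.414 for K20me3 and 0.683 for K4me2, so K4me3 had the lowest of the 8. The K4me3 enrichment of the normal heart had a higher rho with K4me2 of the failed heart, 0.343, and with acetylated histone H3 (H3ac) of the failed heart, 0.291. The K4me3 enrichment of the failed heart had 0.248 with K9me2 of the normal heart and 0.105 with K4me2 of the normal heart. K4me3 also had the smallest spread of enrichment among the 8 marks, with SDs across genes of 0.64 and 0.61, where K4me2 had 1.0 and 0.93. Genes enriched 2-fold in both hearts were 15.5% for K4me2, 8.72% for H3ac and 0.746% for K4me3.

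On the ChIP arrays without pre-IP, K4me3 did not stand lowest. The K4me3 arrays of the hearts had a rho of 0.735 with each other, the fifth highest of the 8 marks, whose ChIP arrays had 0.667 for K9me3 to 0.873 for H4ac. The SD across genes of the difference between the ChIP arrays of the hearts was smallest for K4me3, 0.51, where the other marks had 0.54 to 0.87. K4me3 thus had the lowest rho of enrichments but not the largest difference between its ChIP arrays. The pre-IP arrays of the hearts had a rho of 0.684. The normal K4me3 array had 0.617 with its own pre-IP array and 0.687 with that of the failed heart. The failed K4me3 array had 0.626 with its own pre-IP array and 0.561 with that of the normal heart. For 1837 genes with 2 or more probe sets past the filter, Pearson's r between a pair of probe sets of a gene was 0.196 for the enrichment in normal heart, 0.155 in failed heart and 0.10 for the difference. Of 108 pairs enriched at the first probe set in the normal heart, 17 (15.7%) were also enriched at the second, where 7.46% of all second probe sets were. Pairs of probe sets can lie close together, and their positions were not used.

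**Figure D4:**
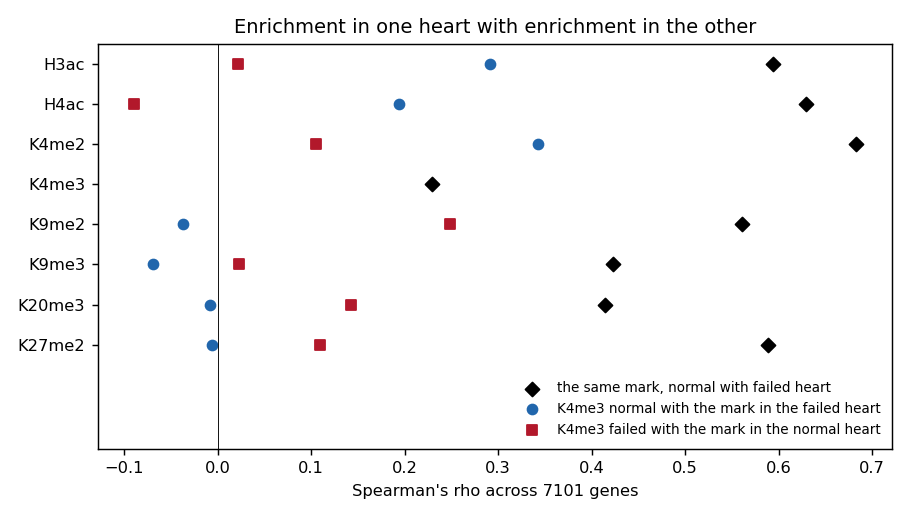
Spearman's rho (x axis) across 7101 genes between enrichments of different hearts, for 8 marks (y axis); black diamonds compare a mark with itself, blue circles K4me3 of the normal heart with the mark in the failed heart, and red squares K4me3 of the failed heart with the mark in the normal heart. K4me3 with itself is at 0.229, below the diamonds of the other marks at 0.414 to 0.683.

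The comparison of the hearts asked which genes carried more or less K4me3 in heart failure. Over pre-IP, 631 genes (8.89%) were higher by 2-fold or more in the failed heart and 699 (9.84%) were lower, 18.7% together. Most of these genes did not reach 2-fold on the K4me3 arrays alone. On those arrays 182 genes (2.56%) were 2-fold higher and 166 (2.34%) lower, 4.9% together, and on the pre-IP arrays 332 (4.68%) were higher and 247 (3.48%) lower, 8.15% together. Of the 1330 genes counted over pre-IP, 227 (17.1% of them, 3.2% of all genes) were also past 2-fold in the same direction on the K4me3 arrays alone, 391 (29.4%) were past 2-fold the opposing way on the pre-IP arrays alone, and 727 (54.7%) were past it on neither kind alone. The SD across genes was 0.77 for the difference over pre-IP, 0.51 on the K4me3 arrays and 0.57 on the pre-IP arrays. The pre-IP arrays of the hearts therefore differed across genes by more than the K4me3 arrays did. With 1 array each, array noise could not be separated from a difference in the DNA.

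**Figure D5:**
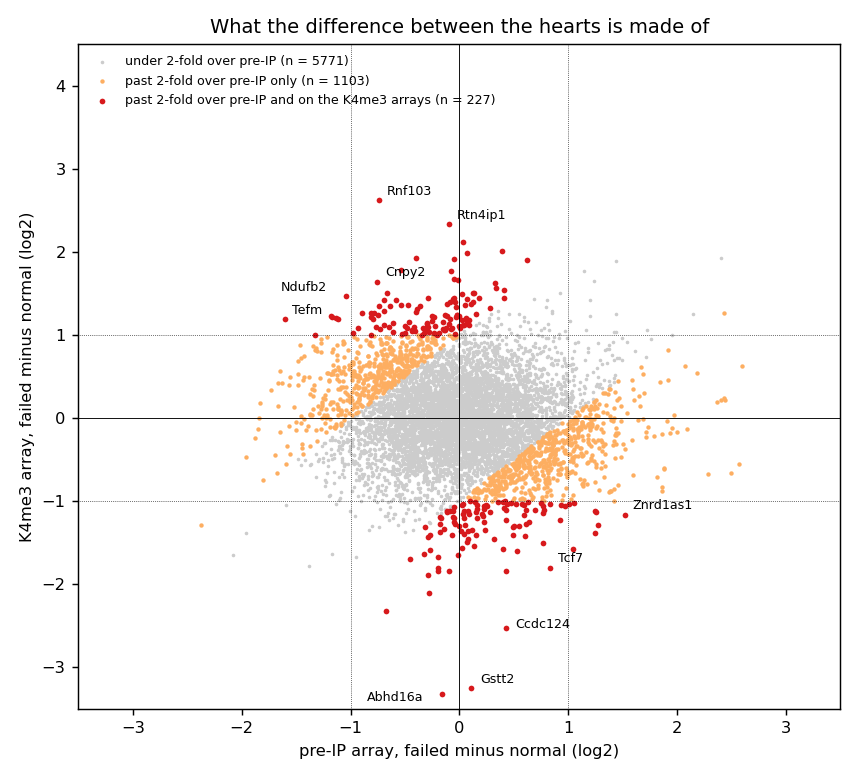
Difference between the hearts (failed minus normal, log2) on the pre-IP arrays (x axis) and on the K4me3 arrays (y axis) for 7101 genes, with dotted lines at 2-fold. Red points (227) are past 2-fold over pre-IP and on the K4me3 arrays, orange points (1103) over pre-IP only; grey points are under 2-fold over pre-IP; Rnf103 is highest and Gstt2 and Abhd16a are lowest on the K4me3 axis.

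Genes past 2-fold both with and without pre-IP numbered 118 higher (1.66%) and 109 lower (1.53%). Genes enriched 2-fold in one heart and depleted 2-fold in the other numbered 12 (0.169%). Rnf103, a ubiquitin ligase of the endoplasmic reticulum, was first among the higher ones, with K4me3 intensities of 47.2 in normal heart and 289 in failed heart and pre-IP intensities of 184 and 110. It went from -1.96 to 1.39, a difference of 3.36 (10.2-fold), and of 2.62 on the K4me3 arrays alone. Tefm, an elongation factor of mitochondrial transcription, had K4me3 intensities of 102 and 233 and pre-IP intensities of 265 and 87.0, and differed by 2.79, with 1.19 without pre-IP. Ndufb2, a subunit of respiratory complex I, had K4me3 intensities of 190 and 523 and pre-IP intensities of 229 and 111, and differed by 2.51, with 1.46 without pre-IP. Rtn4ip1, a mitochondrial oxidoreductase, had K4me3 intensities of 86.9 and 437 and pre-IP intensities of 146 and 137, so that its difference of 2.43 was nearly as large without pre-IP, 2.33. At its other probe set, under the level filter, the difference was 0.04.

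The remaining 6 of the 10 largest differences upward lay between 2.33 and 2.40 over pre-IP and between 1.0 and 1.93 without it. They were Gngt1, a transducin subunit, Cnpy2, a protein of the endoplasmic reticulum, Ddah2, which breaks down methylarginines, the zinc finger gene Zfp362, Depdc1b, and Chtf18, part of a clamp loader of DNA replication. Each of these 6 was measured by 1 probe set.

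Gstt2, a glutathione transferase, had the largest difference over pre-IP among the genes lower both with and without pre-IP. Its K4me3 intensities were 261 in normal heart and 27.4 in failed heart, and its pre-IP intensities 182 and 197. It differed by -3.36 over pre-IP and -3.25 without it. At its other probe set the difference was -2.16 over pre-IP and -0.55 without it. Abhd16a, a phospholipase, had K4me3 intensities of 316 and 31.7 and pre-IP intensities of 273 and 245. Its differences were -3.16 and -3.32, again carried by the K4me3 arrays. Ccdc124, a ribosome-associated protein, had K4me3 intensities of 174 and 30.2 and pre-IP intensities of 177 and 238, and differed by -2.95, with -2.52 without pre-IP.

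Tcf7, a transcription factor of the Wnt pathway, differed by -2.64 and -1.80, and Ankrd27, an adaptor of endosomes, by -2.62 and -1.58. Srsf11, a splicing factor, differed by -2.63 and -1.39, with 0.60 over pre-IP at its other probe set, under the level filter. Znrd1as1, a noncoding antisense gene, differed by -2.69 over pre-IP and -1.16 without it, and its other probe sets by -0.67 and -0.97 over pre-IP. Pcif1, an mRNA cap methyltransferase, differed by -2.57 over pre-IP and -1.29 without it, and its other probe set by -0.56 and 0.02. Akr1e2, an aldo-keto reductase, differed by -2.39 and -1.14. Adora2a, an adenosine receptor, differed by -2.36 and -1.11, with -0.71 and -0.27 at a second probe set. Over genes with several probe sets, a difference of 2-fold downward was found again at the second probe set for 24 of 179 (13.4%), where 11.2% of all second probe sets had it, and upward for 21 of 147 (14.3%), where 9.91% had it.

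Among gene classes, 4 had a median difference of -0.4 or below over pre-IP and of -0.2 or below without it, over members that passed. Of these 4, the histone genes alone also met both sizes over all measured members. Adipocyte markers met them over all 6 measured members, with -0.40 and -0.28, but not over the 4 that passed, with -0.07 and 0.11. For the class counts below, 3554 of all 7101 genes that passed had a difference below 0 over pre-IP and 3547 above 0. On the K4me3 arrays alone it was 3629 below 0 and 3472 above 0. Histone genes had -0.55 and -0.29 over 19 genes, 15 of them below 0. All their measured members together had K4me3 medians of 0.59 in normal heart and -0.02 in failed heart. Their K4me2 medians of 1.80 and 1.86 did not show that difference. Their H3ac medians of 1.10 and 0.73 were, like K4me3, lower in the failed heart. H2bc1 had K4me3 intensities of 398 and 229 and pre-IP intensities of 124 and 269, and went from 1.69 to -0.23. H2ac1 had K4me3 intensities of 468 and 150 and pre-IP intensities of 310 and 247, and went from 0.59 to -0.72. At the other end of the class H2al2l went from -0.57 to 0.50. Histone genes are short and alike in sequence, so probe sets of different members may share DNA.

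Immediate early and stress response genes, of which the immediate early ones are switched on within minutes of a stimulus, had -0.41 and -0.23 over 29 genes. Of these, 22 were below 0 over pre-IP. Over all 37 measured members the medians were smaller, -0.22 and -0.14. Of the 29, 7 were enriched 2-fold in the normal heart, where 6.55% of all genes were, and 1 in the failed heart, where 5.28% were. Ier3 had K4me3 intensities of 1515 and 923 and pre-IP intensities of 348 and 876, and went from 2.12 to 0.08. Zfp36, which destabilises cytokine mRNA, went from 1.20 to -0.20, while Egr4 went from 0.84 to 1.73 and Egr2 from -0.35 to 0.80. Fos had differences of 0.51 and -0.20 at a pair of probe sets, both under the level filter. Jun differed by -0.51, with -0.59 and 0.03 at its other probe sets.

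Natriuretic peptide and hypertrophy genes had -0.52 and -0.32 over 12 genes, 8 of them below 0, and their median mRNA difference was 1.59. Over all 17 measured members the median over pre-IP was -0.38. It was -0.0036 with a floor of 50 and -0.62 with the mean of the probe sets, so the size of this difference rested on the processing. Nppa, which encodes atrial natriuretic peptide, had K4me3 intensities of 195 and 157 and pre-IP intensities of 69.8 and 177, and went from 1.48 to -0.17. Its difference of -1.66 shrank to -0.32 on the K4me3 arrays alone. Nppb, which encodes brain natriuretic peptide, had K4me3 intensities of 201 and 231 and pre-IP intensities of 601 and 555, and was low in both hearts at -1.58 and -1.26. Myh7 had K4me3 intensities of 234 and 63.3 and pre-IP intensities of 298 and 244. Its difference was -1.60 over pre-IP and -1.89 without it, and its other probe set had -0.73 and -1.10. Ankrd1, a stress gene of muscle, went from -1.0 to -1.88, and at its other probe set from 0.41 to -1.81, and Acta1, the skeletal actin gene, from 0.06 to -0.32.

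Endothelial markers had -0.59 and -0.41 over 7 genes, 5 of them below 0 over pre-IP and all 7 on the K4me3 arrays alone. Over all 15 measured members the medians were -0.15 and -0.33, and the first was -0.47 with the mean of the probe sets. Pecam1, an adhesion protein of endothelium, had K4me3 intensities of 478 and 237 and pre-IP intensities of 236 and 365, and went from 1.02 to -0.62. Sox18, a transcription factor of vessels, went from 1.27 to -0.19, while Kdr, a VEGF receptor, had -0.20 and -0.19. The summed endothelial mRNA level given above was 12188 and 11365, and its part in these differences was not tested.

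Classes higher in the failed heart by 0.4 or more over pre-IP and by 0.2 or more without it, over members that passed, were 3. Of these, the testis genes alone also met both sizes over all measured members. Cardiac transcription factors had 0.49 and 0.24 over 8 genes, 6 of them above 0. Over all 19 measured members they had 0.50 and 0.04, and the first was 0.25 with the mean of the probe sets. Srf, which drives muscle and growth genes, had K4me3 intensities of 76.2 and 157 and pre-IP intensities of 160 and 105, and went from -1.07 to 0.58. Mef2c went from -1.16 to 0.32, with K4me3 intensities of 214 and 154 and pre-IP intensities of 477 and 123. Mef2a went the other way, from 1.09 to -0.80. Gata4 and Nkx2-5, regulators of heart development, differed by 0.75 and 0.74 at the probe sets used, which did not pass the filter. The other Gata4 probe set, which passed, differed by -0.32. Brain genes had 0.98 and 0.32 over 6 genes, and 0.48 and 0.19 over all 23 measured. Testis genes had 0.47 and 0.27 over 10, and 0.47 and 0.24 over all 16.

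Other classes moved over pre-IP and little or not at all on the K4me3 arrays. Intercalated disc genes, which join heart muscle cells, had a median difference of 0.72 over 6 genes, with -0.07 on the K4me3 arrays and -0.61 on the pre-IP arrays. Over all 13 measured members it was 0.44, and -0.026 with the mean of the probe sets. Gja1, the gap junction protein connexin 43, had K4me3 intensities of 230 and 157 and pre-IP intensities of 725 and 241, so its enrichment went from -1.66 to -0.62 while its K4me3 signal was lower in the failed heart. Macrophage and leukocyte markers had -0.41 over 10 genes, with 0.08 on the K4me3 arrays and 0.40 on the pre-IP arrays. Over all 21 measured members it was -0.40, and -0.037 with a floor of 50. Their summed mRNA level was 2225 in normal heart and 9523 in failed heart, and its part was not tested. Glycolysis genes had -0.57 and -0.17 over 13 genes, and over all 23 measured members the first was -0.57, or -0.31 with the mean of the probe sets; Pgam2, a muscle phosphoglycerate mutase, had K4me3 intensities of 667 and 304 and pre-IP intensities of 438 and 406.

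Mitochondrial ribosomal proteins had -0.31 and -0.22 over 56 genes, and respiratory chain genes -0.13 and -0.29 over 79. Of these 79, 59 were below 0 on the K4me3 arrays, where 3629 of all 7101 genes were. Extracellular matrix genes had -0.19 over pre-IP and 0.19 without it over 17 genes. Of the matrix genes, Col1a1 differed by -0.12 and 0.44 (0.35 and 0.57 at its other probe set), Col3a1 by -0.19 and -0.06 and Timp1 by 0.58 and 0.54. Postn, under the level filter, differed by 0.41 and 0.31. Cpt1b, which carries fatty acids into mitochondria, had K4me3 intensities of 155 and 64.1 and pre-IP intensities of 87.4 and 133, and went from 0.83 to -1.06, with -1.28 on the K4me3 arrays alone. Pdk4, a kinase that holds back glucose oxidation, went from -0.89 to 0.01.

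The K4me3 differences were then set beside the mRNA differences. Across 5010 genes whose mRNA could be compared, the rho between the mRNA difference and the K4me3 difference was -0.03 with and without pre-IP. The 611 genes with mRNA at least 2-fold higher in the failed heart had a median K4me3 difference of -0.10, with -0.04 without pre-IP, and 7.20% of them were past 2-fold upward, where 8.78% of the 5010 were. The 150 genes with mRNA at least 2-fold lower had a median of 0.09, and 12.7% of them were past 2-fold downward, where 9.88% of the 5010 were.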

How the data were processed

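The values are intensity on a linear scale, given for each of 31099 probe sets (57 controls) on every array, as deposited by the authors in the table of the whole series. The sources used here do not name the summarising tool. Trimmed means (2% off each end) were 500.03 to 500.17 on the 20 arrays. Each array was scaled to a median of 100, floored at 10 and log2 transformed. Of the probe sets, 20826 named exactly 1 gene, 436 several and 9780 none; only the first kind was used. A gene was read from whichever of its probe sets was highest on the mRNA arrays. Gene spans and promoters came from RefSeq tables of GRCr8. Python 3.11.15, pandas 2.3.3 and scipy 1.17.1 were used. The counting was tested on simulated arrays, with shifts larger than 2-fold and less noise than the real pre-IP arrays differed by. That test does not show how many genes noise alone would bring past 2-fold here.

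Arrays give no counts, and their number, 1 per group, limits the precision; no test was made. Named were the 10 genes highest and lowest in both hearts by the enrichment smaller in size, the 10 largest differences each way that were also 2-fold without pre-IP, 22 preset genes, and up to 4 members of a class, its 2 highest and 2 lowest. Members and lists were chosen with earlier results of these data known. Of 53 classes, the 22 plotted were selected after their values were seen. Tried as alternatives were a floor of 50, values as deposited, quantile normalization, the mean of the probe sets, no level filter, no pre-IP, a size of 1.5, and the mean of both pre-IP arrays, the last chosen after seeing the data.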

Additional observations from a re-analysis of the deposited data

Results flagged for a closer look

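K4me3 lay at least 2-fold over pre-IP in one heart and at least 2-fold under it in the other for 12 of the 7101 genes (0.169%), and 8 of these also differed by at least 2-fold in the same direction on the K4me3 arrays alone. They stand out because the 1 sample of each heart lies on the other side of 0; with 1 array per heart the difference was not tested. Rnf103 had a difference of 3.36, Tefm of 2.79, Cnpy2 of 2.40, Depdc1b of 2.33 and Chtf18 of 2.33, and the report gives or summarises their values. Pcif1 had a difference of -2.57, with K4me3 intensities of 154 in normal heart and 63.0 in failed heart and pre-IP intensities of 68.3 and 165. Uck2, a uridine-cytidine kinase, had a difference of 2.32, with K4me3 intensities of 126 and 432 and pre-IP intensities of 284 and 195. Mtrf1, a release factor of mitochondrial translation, had a difference of 2.18, with K4me3 intensities of 402 and 1143 and pre-IP intensities of 904 and 569. In all 8 genes the pre-IP arrays differed between the hearts in the direction opposite to the K4me3 arrays. For every gene but Rnf103 the selection fixed this, because the K4me3 difference alone was smaller than the difference the selection asked for.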

How the results depend on the processing

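No paired analysis was possible because each group has 1 array. With a floor of 50, values as deposited, quantile normalization or the mean of the probe sets, each count stayed within 1.5 times its reported value, except that genes depleted in both hearts numbered 26 with the mean of the probe sets instead of 41. Without the level filter, genes enriched in the normal, in the failed and in both hearts numbered 1426, 930 and 195, depleted in both 197, higher 1535 and lower 2216; more genes are counted there. Without pre-IP 182 were higher and 166 lower. With the mean of both pre-IP arrays 214 were enriched in the normal heart and 88 in both. At a size of 1.5 the counts in the same order were 97, 82, 4, 7, 163 and 196. The shortest minus the longest genes gave 0.37 in the normal heart, and 0.58 among the genes brightest on pre-IP. Turned signs were listed only for class medians of at least 0.2 in size and gene values of at least 1 in size. Among these, signs turned for the failed median of ribosomal proteins (0.0096) and for Gosr1 in the failed heart (0.26), both with quantile normalization. They also turned for the intercalated disc difference (-0.026 with the mean of the probe sets, -0.31 without pre-IP) and for the normal median of macrophage markers (-0.0043 with the mean of both pre-IP arrays). Smaller values turned as well. Without pre-IP these included the differences of Myc (0.70), of extracellular matrix genes (0.12) and of calcium cycling genes (-0.02). Beyond what is stated, the cause was not tested. The number of arrays limits all values.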

Other observations

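These values were looked at after the main results were seen. Chemokines, interleukins and their receptors, signals between immune cells, had K4me3 medians above all genes in both hearts, 0.20 in normal heart and 0.24 in failed heart over 89 genes. Of these, 39 were above 0 and 14 below 0 in both hearts, which is 43.8% and 15.7%, where all measured genes had 27.7% and 28.9%. Cell cycle and DNA replication genes lay below 0, with medians of -0.20 and -0.13 over 110 genes, 38 of them below 0 and 20 above 0 in both hearts. Olfactory and vomeronasal receptors, silent outside sensory tissue, had K4me3 medians of -0.18 and -0.21 over 31 genes. The same receptors had -0.65 and -0.91 for K4me2 and -1.77 and -1.56 for H3ac.

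Probe sets with no gene in the annotation gave shares close to those of named genes: of 4491 that passed the filter, 6.70% were enriched in normal heart, 4.88% in failed heart and 0.668% in both. By chromosome, the 62 genes of the X had a median difference of 0.30 over pre-IP, with -0.06 on the K4me3 arrays and -0.29 on the pre-IP arrays. Chromosome 20 holds Gstt2, Abhd16a, Znrd1as1 and Adora2a, lower in the failed heart, and Rtn4ip1 and Ddah2, higher there. Of its 225 genes, 16 (7.11%) were past 2-fold either way on the K4me3 arrays alone, where 4.90% of all genes were. The median difference of the 225 on the K4me3 arrays was -0.01. Chromosome 3 had 6.73% of 535 genes past 2-fold.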
